A study of Mus musculus with 2 samples.

Results

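Small RNA host genes are transcribed genes whose introns, and in places exons, hold small nucleolar RNAs (snoRNAs), small Cajal body RNAs (scaRNAs) or microRNAs (miRNAs). The 27 genes described here are those of 55536 in the gene table whose symbol begins with Snhg and a number, begins with Mir and ends in hg, or is Gas5 or Dleu2. They comprise 16 genes named Snhg or Gas5, which mostly hold snoRNAs and scaRNAs, and 11 named Mir or Dleu2, which hold miRNAs. Levels come from total RNA-seq of whole adrenal gland of male B6CASTF1/J mice (F1 hybrids of the C57BL/6J and CAST strains) at 2 months of age. The 2 libraries, biological replicates 2 and 1, form a single group; 300 ng of RNA went into each, ribosomal RNA was reduced, and the kit was directional. The sample descriptions give animal numbers 4 for replicate 2 and 3 for replicate 1, whereas the library descriptions and the donor field are the same for both, so the spread between libraries may be technical. With 1 library on each side no p-value was possible, and in bulk tissue fewer cells of a type and less RNA per cell cannot be told apart.

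Host transcripts are spliced, the small RNA is released from the excised intron or cut from the primary transcript, and the joined exons are often degraded. C/D box snoRNAs guide ribose methylation, H/ACA box snoRNAs guide pseudouridine formation in ribosomal RNA, scaRNAs act on spliceosomal RNAs, and miRNAs silence mRNAs that pair with their seed. Several snoRNA hosts, Gas5 among them, begin like ribosomal protein mRNAs with a terminal oligopyrimidine tract, and their exons lack long reading frames, so the spliced RNA is removed by nonsense-mediated decay when it is translated.

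The sequences of the 5 small RNAs with the most counts are shown first, followed by Snord47, a short snoRNA of Gas5 that held none, because the counts below turn on which of these RNAs are long enough to be counted and on whether they lie in an exon of the host. The letters are those of GENCODE M21 (GRCm38), and 39 small RNA genes of hosts other than Snhg14 had a sequence. In the first 4, which are H/ACA type or annotated as scaRNA, capitals mark the ACA that lies 3 bases before the end; Snord22 and Snord47 are C/D snoRNAs, in which capitals mark the box motifs TGATGA, where those letters occur, and CTGA.
Snora73b: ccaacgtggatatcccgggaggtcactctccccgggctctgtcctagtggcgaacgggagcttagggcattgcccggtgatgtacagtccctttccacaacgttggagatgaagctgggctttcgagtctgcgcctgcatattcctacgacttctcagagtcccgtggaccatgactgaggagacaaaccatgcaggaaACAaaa
Snora73a: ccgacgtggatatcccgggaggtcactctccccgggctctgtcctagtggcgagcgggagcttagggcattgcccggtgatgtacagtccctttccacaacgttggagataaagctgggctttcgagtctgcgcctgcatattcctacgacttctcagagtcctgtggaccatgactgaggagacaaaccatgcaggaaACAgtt
Scarna13: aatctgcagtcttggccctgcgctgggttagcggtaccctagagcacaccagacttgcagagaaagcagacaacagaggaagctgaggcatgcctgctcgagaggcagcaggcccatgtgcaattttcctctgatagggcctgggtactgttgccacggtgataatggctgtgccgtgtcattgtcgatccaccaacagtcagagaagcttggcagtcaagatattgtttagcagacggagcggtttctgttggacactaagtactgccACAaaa
Gm26083: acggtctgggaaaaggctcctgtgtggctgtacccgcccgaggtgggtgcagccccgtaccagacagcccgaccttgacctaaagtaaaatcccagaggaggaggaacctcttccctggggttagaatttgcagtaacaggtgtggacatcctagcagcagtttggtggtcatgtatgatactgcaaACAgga
Snord22: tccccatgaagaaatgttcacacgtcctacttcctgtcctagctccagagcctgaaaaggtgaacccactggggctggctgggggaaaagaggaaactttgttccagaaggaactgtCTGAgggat
Snord47: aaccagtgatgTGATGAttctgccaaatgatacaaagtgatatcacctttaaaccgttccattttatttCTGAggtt
Snora73b (chr4:132352322-132352526, minus strand) and Snora73a (chr4:132352775-132352979, minus strand) lie in introns of Snhg3 and are each 205 bases long. They differ at 7 positions without gaps, which is 96.6% identity, so the division of reads between them is uncertain. Scarna13 (chr12:105031075-105031349, minus strand, 275 bases) lies in an intron of Snhg10. The scaRNA Gm26083 (chr11:117077243-117077435, plus strand, 193 bases) lies within exons of 2 annotated Snhg20 transcripts, and Snord22 (chr19:8725866-8725991, plus strand, 126 bases) within exons of 3 Snhg1 transcripts. Snord47 (chr1:161038082-161038158, plus strand) is one of the snoRNAs of Gas5 and has 77 bases.

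For the miRNA hosts, 37 mature miRNAs of RefSeq (GRCm38.p6) lay within 10 of the 27 genes on the same strand. The 10 include Snhg10 and Snhg20, whose miRNAs are described at the end. Those of the 3 genes named Mir or Dleu2 at 1 TPM or more are shown by their guide arms, with the seed (bases 2 to 8) in capitals.
miR-22-3p (Mir22hg): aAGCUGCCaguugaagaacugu
miR-15a-5p (Dleu2): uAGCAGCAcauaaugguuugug
miR-16-5p (Dleu2): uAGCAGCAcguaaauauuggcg
miR-99a-5p (Mir99ahg): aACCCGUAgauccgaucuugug
let-7c-5p (Mir99ahg): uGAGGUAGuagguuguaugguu
miR-125b-5p (Mir99ahg): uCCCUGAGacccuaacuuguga
The Dleu2 pair share 1 seed, while miR-22-3p and the 3 miRNAs of Mir99ahg each have a seed of their own. No annotated miRNA gene inside a host held any counts in these libraries. Only 5 of these 25 genes have 100 bases or more, and shorter ones may hold 0 counts by construction. The levels below are therefore those of the host transcripts and not of the mature miRNAs.

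The authors quantified each library in 2 ways, in tables that derive from transcriptome alignments (alignment-based) and in tables that derive from the reads and an index (read-based); values are alignment-based unless said otherwise, and gene coordinates are those of M21 on GRCm38 (mm10). In all, 17 of the 27 host genes (63.0%) reached 1 TPM (transcripts scaled to a fixed total and per length, here from the alignment-based tables) in both libraries, against 23.4% of all 55536 genes and 3.50% of the 10155 genes of long noncoding types. The detected genes were 14 of the 16 named Snhg or Gas5, of which Snhg7os holds no annotated small RNA, and 3 of the 11 named Mir or Dleu2. The 27 genes summed to 202.2 TPM in replicate 2 and 187.9 TPM in replicate 1 (mean 195.1 ± 10.2, SD, n = 2). In counts they were a small part of the libraries, with 5950 of 34149995 expected counts (0.0174%) in replicate 2 and 5726 of 36182740 (0.0158%) in replicate 1.

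Gas5 (ENSMUSG00000053332.13, chr1:161034422-161038539, plus strand), whose RNA accumulates when growth stops and is known from human cells to bind the glucocorticoid receptor, stood at 82.5 TPM in replicate 2 and 69.7 TPM in replicate 1 (76.1 ± 9.05, SD, n = 2). It alone made up 40.8% of the summed TPM in replicate 2 and 37.1% in replicate 1, and it ranked 8 among the long noncoding genes by mean TPM. It had 1674 and 1504 expected counts, the most of any host gene. By the read-based table its lead was smaller, with a mean of 180.93 TPM of a summed 664.1, beside 145 for Snhg20 and 121 for Snhg1.

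Mir22hg (chr11:75461539-75466676, plus strand), the host of miR-22, came next with 16.8 TPM in replicate 2 and 14.4 TPM in replicate 1. It was the highest of the miRNA hosts. Snhg1 (chr19:8723475-8726443, plus strand), host of Snord22 and of 7 other annotated snoRNAs, had 15.3 and 14.8 TPM. The ranges of Mir22hg and Snhg1 overlapped, and both lay well below Gas5 by the alignment-based table.

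A further 4 hosts lay close together. Snhg5 (chr9:88521050-88522929), which carries Snord50a and Snord50b, had 11.8 TPM in replicate 2 and 11.1 in replicate 1. Snhg8 (chr3:123507552-123508404), host of Snora24, had 10.70 and 12.03 TPM. Snhg3 (chr4:132348014-132353686), host of Snora73a and Snora73b, had 10.52 and 12.03 TPM. The order among these 3 changed with the library, so they do not differ beyond their spread. Snhg20 (chr11:117076008-117078955) had 9.85 TPM in replicate 2 and 10.8 in replicate 1, just below them. Snhg12 (chr4:132308623-132311024), which holds 5 annotated snoRNAs, was lower, with 5.83 and 7.62 TPM.

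Below these, Snhg6 (chr1:9941959-9944118), host of Snord87, had 6.49 TPM in replicate 2 and 6.56 in replicate 1. Dleu2 (chr14:61602839-61682373), the host of miR-15a and miR-16, had 6.92 and 6.00 TPM, and Snhg18 (chr15:32240565-32244662), host of Snord123, had 5.92 and 6.18 TPM. The range of Snhg12 enclosed those of all 3. Snhg15 (chr11:6525591-6528760), host of Snora9, had 5.28 TPM in replicate 2 and 3.05 in replicate 1, and Snhg17 (chr2:158353700-158361580) had 3.70 and 1.94 TPM, the widest TPM ratios between libraries among the detected genes. Mir99ahg (chr16:77236317-77773427), the host of miR-99a, let-7c and miR-125b, had 3.59 and 3.12 TPM. Snhg11 (chr2:158375638-158386145), which M21 annotates as protein coding, had 2.76 and 2.84 TPM.

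Snhg14 (chr7:59307924-59975759, minus strand) is the long host of the imprinted snoRNA clusters and runs antisense to Ube3a; it had 1.99 TPM in replicate 2 and 1.53 in replicate 1, and Ube3a had 43.2 and 38.3 TPM. It holds 208 of the 272 small RNA genes annotated within the 27 hosts. Snhg10 (chr12:105030617-105032279), host of Scarna13, was the lowest of the detected genes with 1.44 and 1.39 TPM, from only 18 and 16 counts. Gas5 overlaps Zbtb37, Dleu2 overlaps Trim13 and Snhg9 overlaps Rps2 on the opposite strand, as Snhg14 does Ube3a. Whether counting used the strand is not given in the sources used here, so reads of these pairs are uncertain. Snhg3 shares its strand with part of Rcc1, and Mir22hg with part of Tlcd2.

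**Figure D1:**
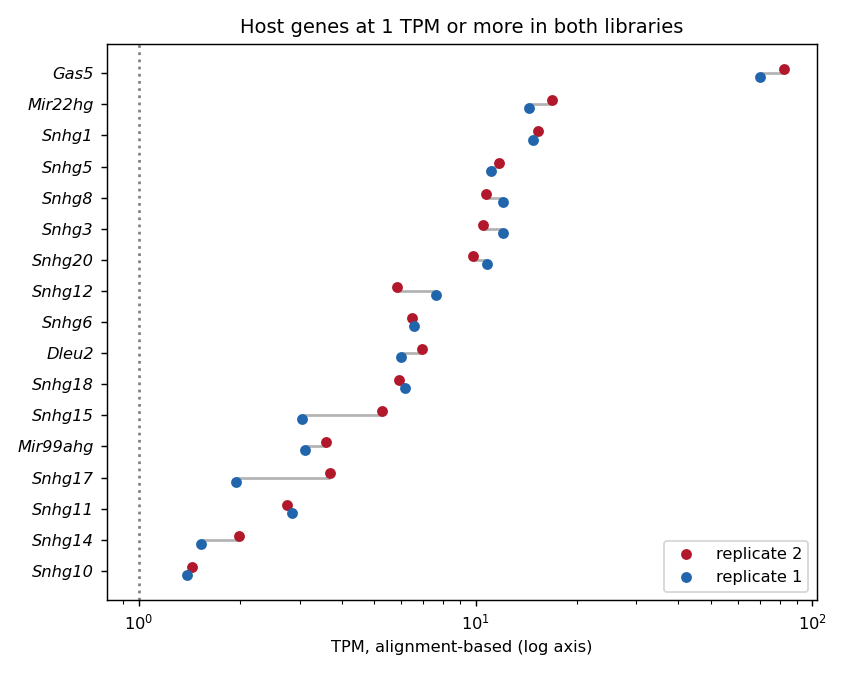
TPM (alignment-based, log axis) of the 17 host genes at 1 TPM or more in both libraries, with replicate 2 as red points above replicate 1 as blue points and a grey line joining them. Gas5 lies apart at 82.5 and 69.7 TPM, and on this log axis the gap between libraries is widest for Snhg15 and Snhg17.

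Among the other 10 host genes, Snhg9 had 0 counts in replicate 2 and 6 in replicate 1, which is 0 and 1.84 TPM on a transcript of 183 bases. Mir17hg, the host of the miR-17 to miR-92a cluster known for driving cell growth, had 57 counts in replicate 2 and 42 in replicate 1, spread over a transcript of 3536 bases, and so stood at 0.46 and 0.31 TPM. Mir670hg had 9 and 6 counts, or 0.28 and 0.18 TPM. These 3 genes were the only ones of the 10 with more than 5 counts in a library. Mir142hg and Mir155hg, whose miRNAs are known from blood and immune cells, had 0 counts in replicate 2 and 2 and 1 counts in replicate 1. Mir9-3hg and Mir124a-1hg, whose miRNAs are typical of neurons, had 2 and 4 counts in replicate 2 and 3 and 5 in replicate 1. Snhg7os, Mir133a-1hg and Mir124-2hg had 0 counts in both libraries, and a count of 0 allows up to 3 counts. By the read-based table, Mir124-2hg had 10.3 and 7.5 estimated counts.

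The tissue label was checked against marker genes. The 7 steroidogenic cortex markers summed to 15713.3 TPM in replicate 2 and 14159.5 TPM in replicate 1, and the 6 chromaffin markers to 1858.6 and 2113.5 TPM, so RNA of cortex and of medulla was present. Other tissue was present too and differed between the libraries. All 5 brown adipocyte markers were over 1.5-fold lower in replicate 2 (733.3 TPM in sum, against 1446.2 in replicate 1), as were all 5 red cell markers (1174.3 against 1948.5 TPM). In the other direction, the hepatocyte marker Alb was over 1.5-fold higher in replicate 2, with 347 counts against 66 in replicate 1, and the 4 hepatocyte markers summed to 7.6 and 2.2 TPM. The 4 macrophage markers summed to 68.6 and 67.2 TPM. The 5 lymphocyte markers summed to 14.6 and 13.6 TPM.

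The replicates were compared by the log2 ratio of counts, replicate 2 over replicate 1, after scaling by the trimmed mean of M values (TMM), with a 95% exact interval for counting error. Among the 15 host genes whose mean count was 100 or more, 0 were over 1.5-fold apart, where 331 of 12430 genes (2.66%) were, so with 15 genes a count of 0 is near the background. The ratios lay between -0.35 (Snhg11) and 0.40 (Snhg17 and Snhg14), with 8 above 0 and 7 below, and their median was 0.04 against -0.007 over all genes tested. The median size of the ratio was 0.19 among the host genes and 0.11 over all genes tested, while the median of the mean counts was 244.0 and 838.0. The part of the lower counts of the host genes in their wider ratios was not tested.

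For 5 of the 15 the interval, which holds counting error alone, excluded 0. The share of all genes tested whose interval excluded 0 is not given here, so 5 of 15 is not set against a background. Gas5 was 0.16 higher in replicate 2 (0.06 to 0.26), from 1674 counts against 1504. Mir99ahg was 0.38 higher (0.08 to 0.68), with 215 counts in replicate 2 and 166 in replicate 1. Snhg17 had 260.4 and 197.6 counts, a ratio of 0.40 (0.13 to 0.67), and Snhg14 had 175 and 133 counts, also 0.40 (0.07 to 0.74). The ratios of the last 2 were not seen in the read-based counts, which were 389.2 and 382.0 for Snhg17 (ratio 0.02) and 232.9 and 226.5 for Snhg14 (ratio 0.03).

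Snhg11, a transcript known from neurons, was the 1 gene of the 5 that was lower in replicate 2, with 333 counts in replicate 2 and 427 in replicate 1, a ratio of -0.35 (-0.56 to -0.14), and the read-based ratio was -0.38. Its TPM did not differ as its counts did, with a TPM log2 ratio of -0.04. The 6 chromaffin markers, genes of a neuroendocrine cell, had a median ratio of -0.27 with 0 of 6 higher in replicate 2. The 4 neuron markers had a median ratio of -0.22 with 1 of 4 higher, and summed to 22.9 TPM in replicate 2 and 23.2 in replicate 1. The part of either cell type in the Snhg11 ratio was not tested.

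Snhg15 fell under the count minimum, with 92.2 counts in replicate 2 and 49.8 in replicate 1. Its ratio was 0.35 by the read-based counts, which were 100.3 and 78.0, and 0.89 (0.38 to 1.41) by the alignment-based counts. Once the minimum was lowered to a mean of 20 counts, 6.40% of all genes were over 1.5-fold apart. Snhg10, with 18 and 16 counts, had a ratio of 0.17 and an interval from -0.88 to 1.25, so neither a rise nor a fall was detectable at this depth.

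**Figure D2:**
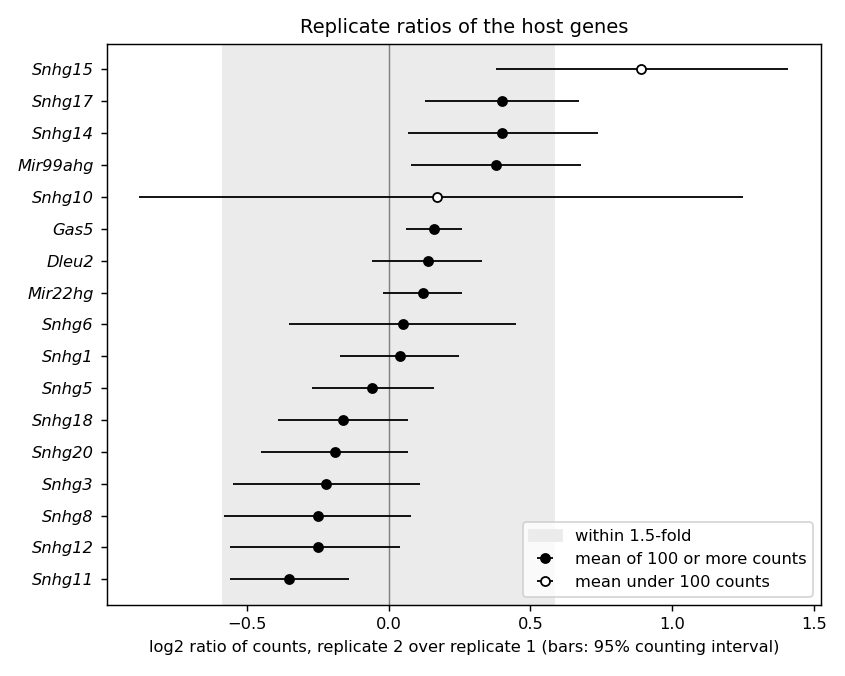
Log2 ratio of expected counts, replicate 2 over replicate 1, of the 17 detected host genes, with 95% counting intervals as bars and the range within 1.5-fold shaded. Filled points have a mean of 100 or more counts and all lie inside the shaded range, while the open point of Snhg15 lies above it at 0.89.

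Lists of genes that act on these RNAs were set beside the hosts. All 17 snoRNP proteins, which bind and modify with snoRNAs, were at 1 TPM or more; Nop10 led with 31.3 TPM in replicate 2 and 35.4 in replicate 1, followed by the methyltransferase fibrillarin (Fbl, 29.5 and 30.1 TPM) and Nop56 (29.7 and 24.1 TPM). All 16 nonsense-mediated decay genes were detected, led by the exon junction proteins Eif4a3 (40.2 and 36.5 TPM), Magoh (20.5 and 20.3 TPM) and Rbm8a (17.23 and 20.03 TPM). Of 15 miRNA processing genes, also all detected, the helicases Ddx5 (244.7 and 220.9 TPM) and Ddx17 (84.2 and 71.8 TPM) and the exporter Xpo5 (22.7 and 18.8 TPM) were highest. None of the 4 lists, snoRNP, decay, miRNA processing and protein-coding snoRNA hosts, had a gene over 1.5-fold apart between the libraries, where 2.66% of all genes tested were, so at these list sizes a count of 0 is near the background. Their median ratios were -0.06, 0.04, 0.12 and -0.04.

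Protein-coding genes with snoRNAs in their introns were higher as a group than the noncoding hosts. The 32 genes of that list summed to 6947.4 TPM in replicate 2 and 6706.4 in replicate 1, led by Tpt1 (917.6 and 903.6 TPM), Rpl13a (550.5 and 506.6 TPM) and Rpl23a (505.3 and 518.6 TPM). Set beside Gas5, the highest noncoding host, 22 of the 32 were above it in both libraries and 10 below it in both, among them Ncl (nucleolin, 59.5 and 52.9 TPM), Nop56 and Rcc1 (4.32 and 4.90 TPM).

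The RefSeq promoter table (GRCm38.p6) held 22 of the 27 hosts, and their start regions were searched for a pyrimidine tract, meaning a C followed by 4 or more C or T on the strand of the gene that opens within 2 bases of an annotated start. Of the 22 genes, 6 (27.3%) had one, against 10.6% of 27025 genes and 33.8% of 71 ribosomal protein genes. The contrast by gene was narrower when the tract could open within 20 bases of the start. Of the 22 genes, 14 (63.6%) then had one, against 53.3% of all genes and 78.9% of ribosomal protein genes. A gene counted if any of its annotated starts had a tract. Per annotated start, hosts showed no excess within 20 bases, with 14 of 30 starts (46.7%) against 49.4% of 32851. Within 2 bases, 6 of the 30 host starts had a tract, against 8.96% of all starts. The 6 genes with a tract within 2 bases are Gas5, Snhg8, Snhg12, Snhg3, Snhg18 and Mir99ahg. Shown are 20 bases before and 30 bases from the annotated start of 3 of them and of Snhg1, with the tract in capitals.
Gas5: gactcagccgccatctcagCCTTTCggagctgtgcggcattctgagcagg
Snhg12: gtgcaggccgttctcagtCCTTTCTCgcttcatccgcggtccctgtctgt
Snhg8: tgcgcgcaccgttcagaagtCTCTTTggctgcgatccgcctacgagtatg
Snhg1: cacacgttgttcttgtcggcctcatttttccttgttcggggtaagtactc
The windows are chr1:161035146-161035195 (plus strand) for Gas5, chr4:132308658-132308707 (plus strand) for Snhg12, chr3:123508307-123508356 (minus strand) for Snhg8 and chr19:8723467-8723516 (plus strand) for Snhg1. In the Snhg1 window these letters do not occur as defined. The leading Gas5 transcript of the alignment-based table begins 3 bases before the RefSeq start shown, and that of Snhg12 begins at it. The leading Snhg8 transcript begins 68 bases before the start shown, and that of Mir99ahg lies far inside the gene.

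Of the 183 annotated transcripts of the 27 hosts, 173 have more than 1 exon and 44 are annotated as retaining an intron. Isoforms were described for 14 hosts with more than 1 transcript and a mean of 100 or more counts, by the share of the gene's TPM on each transcript. The leading transcript had more than 1 exon in all 14, with 2 to 12 exons, and that of Snhg17 is annotated as retaining an intron. The leading transcript took a median share of 58.5% by the alignment-based table, against 66.0% over all such genes. It took over 80% in Snhg20, Snhg8 and Mir22hg and as little as 22.8% in Dleu2. Retained-intron transcripts held 18.1% of the hosts' TPM in replicate 2 and 14.9% in replicate 1.

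Gas5 has 25 annotated transcripts. The leading one, Gas5-224, is the fully spliced form of 12 exons and 502 bases, and its TPM was 41.4 in replicate 2 (authors' bounds 35.3 to 45.1) and 36.5 in replicate 1 (31.1 to 40.1). It held 50.2% and 52.4% of Gas5 TPM. Gas5-210, with 11 exons, held 20.7% and 19.6%. Both leave out every annotated snoRNA, and transcripts with a snoRNA in an exon held 20.5% and 19.1%. None of the 10 annotated Gas5 snoRNA genes, which have 60 to 84 bases, held alignment-based counts in either library. Gas5-218, which keeps the first introns and 6 of the snoRNAs in 1 long exon, stood at 3.69 and 2.58 TPM.

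The read-based table divided Gas5 otherwise. It gave Gas5-224 only 8.32% in replicate 2 and 9.90% in replicate 1, and placed 35.3% and 36.5% on Gas5-203, which the alignment-based table gave 0% and 0.387%. Both are spliced; Gas5-203 starts upstream of Gas5-224 and lacks some of its exons. The 2 tables put Gas5-210 at a like share.

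**Figure D3:**
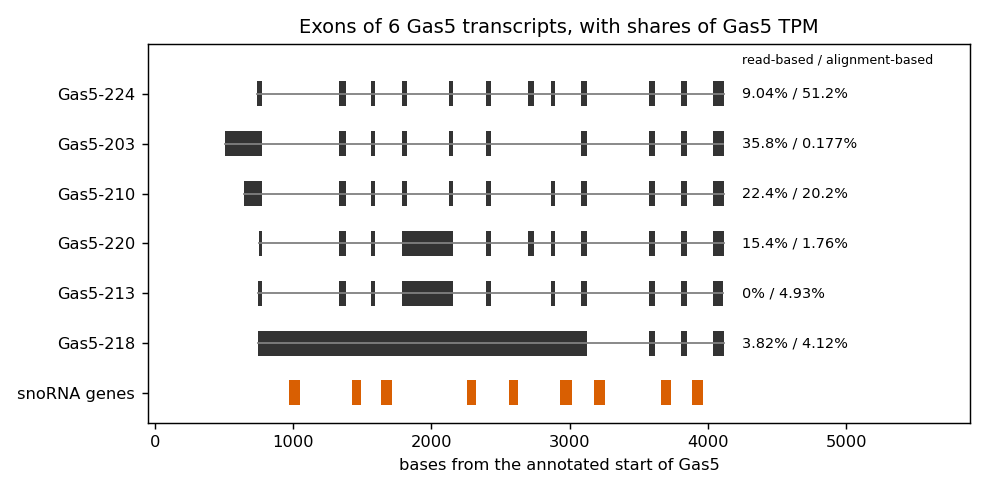
Exons (black boxes) of the 6 Gas5 transcripts with the highest shares and the annotated snoRNA genes (orange), by distance in bases from the annotated start of the gene. The read-based and alignment-based shares of Gas5 TPM over both libraries stand at the right, and Gas5-224 holds 9.04% by the first and 51.2% by the second.

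The leading transcript differed between the tables in 9 of the 14 hosts (64.3%), where it differed in 23.6% of 10981 genes. The 5 with the same leader were Mir22hg, Snhg8, Dleu2, Mir99ahg and Snhg11. In Snhg1, the read-based table put 77.7% of TPM in replicate 2 and 73.4% in replicate 1 on Snhg1-213, a retained-intron transcript of 495 bases. The alignment-based table gave that transcript 1.51% and 0.609%, and put 63.1% and 71.8% on the spliced Snhg1-211. In Snhg20, the read-based leader was Snhg20-201, with 84.8% and 83.6%, which the alignment-based table listed at 0 in both libraries, with 91.2% and 92.4% on Snhg20-202. In Snhg12 the read-based leader Snhg12-204 took 69.7% and 63.3%, against 13.4% and 8.28% by the alignment-based table, where Snhg12-206 led with 44.9% and 48.0%.

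The other 5 hosts with different leaders were Snhg3, Snhg5, Snhg6, Snhg14 and Snhg17. In Snhg3 the read-based leader was Snhg3-202 (78.5% in replicate 2 and 99.6% in replicate 1) and the alignment-based leader Snhg3-204 (67.0% and 71.6%). In Snhg5 they were Snhg5-203 (43.7% and 45.8%) and Snhg5-201 (43.5% and 55.0%). In Snhg6 they were Snhg6-205 (46.5% and 33.5%) and Snhg6-203 (52.5% and 70.7%). The read-based leader of Snhg6 held in replicate 2 alone, since Snhg6-203 took 44.1% of read-based TPM in replicate 1. In Snhg14 they were Snhg14-201 (43.1% and 42.4%) and Snhg14-209 (67.8% and 62.5%), and in Snhg17 the retained-intron forms Snhg17-207 (36.6% and 44.2%) and Snhg17-204 (23.5% and 37.4%).

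**Figure D4:**
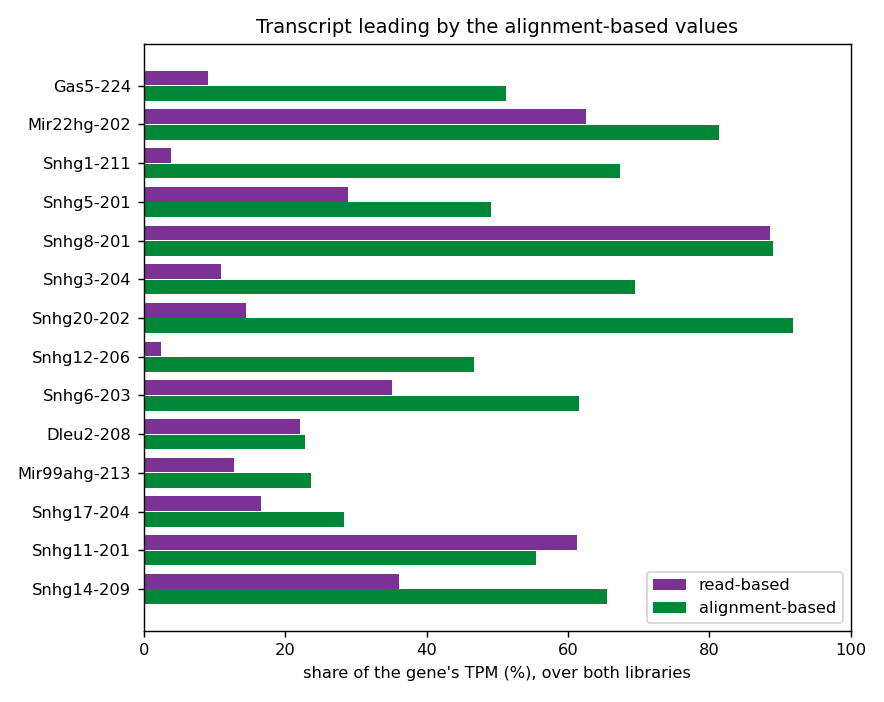
Share of the gene's TPM (percent, over both libraries) on the transcript that leads by the alignment-based table, for 14 host genes, with the read-based share as the upper purple bar and the alignment-based share as the lower green bar. The read-based bar is under 15% for Gas5-224, Snhg1-211, Snhg3-204, Snhg20-202, Snhg12-206 and Mir99ahg-213, and near the alignment-based bar for Snhg8-201 and Dleu2-208.

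Between replicates, the share of the alignment-based leader moved by 10 points or more in 4 of the 14 hosts (28.6%), against 19.2% of 10988 genes. In replicate 2 it was lower by 11.4 points in Snhg5, 18.3 in Snhg6, 14.0 in Snhg17 and 21.6 in Mir99ahg. The authors' TPM bounds of these leaders overlapped between the libraries in all 4. For Snhg6-203 they were 2.10 to 4.55 in replicate 2 and 3.32 to 5.82 in replicate 1, and for Mir99ahg-213 they were 0.0798 to 0.958 and 0.609 to 1.66. In Snhg12, Snhg12-210 had 1.22 TPM in replicate 2 and 0 in replicate 1, Snhg12-208 had 0 and 1.20, and the bounds of each overlapped between libraries.

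Gene levels also differed between the tables. Log2 ratios of read-based over alignment-based TPM were centred on the median of all genes at 1 TPM or more by either table (0.94 in replicate 2 and 0.86 in replicate 1). Of 17 host genes, 2 were over 2-fold higher by the read-based table in both libraries, against 3.55% of 14635 genes, and 0 were over 2-fold lower, against 3.48%. The 2 were Snhg20, with 147 read-based TPM in replicate 2 and 144 in replicate 1 (centred ratios 2.96 and 2.87), and Snhg1, with 127 and 116 (2.11 in both). The alignment-based levels were 9.85 and 10.8 TPM for Snhg20 and 15.3 and 14.8 TPM for Snhg1, so by the read-based table both came directly after Gas5. The next were Snhg14 (0.74 and 1.12), Snhg17 (0.56 and 1.01) and Snhg5 (0.70 and 0.82). Among the lowest were Snhg8 (-0.04 and -0.26), Snhg18 (-0.09 and -0.07), Snhg11 (-0.01 and 0.03), Snhg10 (0.35 and -0.16) and Dleu2 (0.10 and 0.11).

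The read-based table divides by a shorter effective length, in replicate 2 148 against 360 bases for Snhg20-201 and 177 against 396 bases for Snhg1-213. For Snhg8-201, of a gene among the lowest, it was 140 against 349 bases, and for Snhg17-207 it was 1681 against 1908 bases. The part of effective length in the ratios was not tested. In counts, which are not divided by length, Snhg20 had 654 read-based against 227.3 alignment-based counts in replicate 2 and 706 against 260.4 in replicate 1, and Snhg1 had 796 against 378.1 and 778 against 369.8. The read-based counts were thus 2.88 and 2.71 times the alignment-based counts in Snhg20, 2.11 and 2.10 times in Snhg1 and 2.38 and 2.25 times in Snhg12.

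These 3 are also the hosts with most counts on small RNAs inside their exons. In the alignment-based table, Gm26083 within Snhg20 had 371.7 counts in replicate 2 and 384.6 in replicate 1, Snord22 within Snhg1 had 292.9 and 294.2, and the snoRNAs within Snhg12 exons had 159.6 and 166.1, mostly Snora44. The read-based table gave each of these small RNA genes 0 counts. Beside 654 and 706 read-based counts of Snhg20, host and exonic small RNA together came to 599 and 645 alignment-based counts. Beside 796 and 778 read-based counts of Snhg1 the sums were 671 and 664, and beside 413 and 468 of Snhg12 they were 333 and 374. In all 3 the sum was nearer to the read-based count than the host alone, and below it. Any added count smaller than the gap brings the sum nearer. The part of these small RNAs in the gap was not tested. Transcripts with a small RNA in an exon took 86.0% and 84.6% of read-based and 8.82% and 7.58% of alignment-based TPM in Snhg20, and 82.5% and 76.7% against 22.4% and 10.8% in Snhg1. Snhg17, with Gm23925 in its exons, had 389.2 and 382.0 read-based counts beside sums of 319 and 282. Snhg15, with Snora9 in an exon, had 100.3 and 78.0 beside sums of 106 and 65, so its sum in replicate 2 was above the read-based count.

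**Figure D5:**
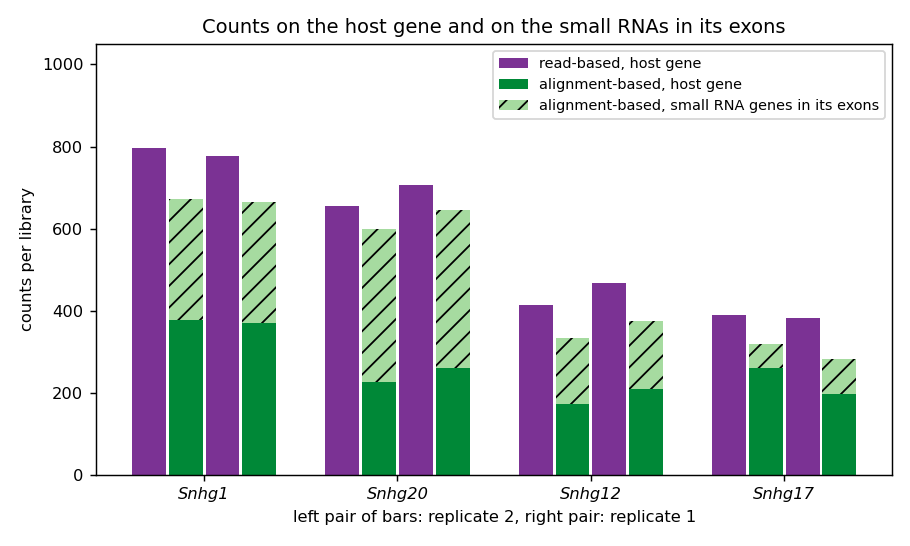
Counts per library for 4 hosts, with the read-based count of the host in purple, the alignment-based count of the host in green and that of the small RNA genes in its exons hatched above it; in each gene the left pair of bars is replicate 2 and the right pair replicate 1. In Snhg20 the purple bars stand at 654 and 706 counts beside stacked bars of 599 and 645, the nearest of the 4 genes.

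In 4 hosts the small RNA with counts lies in no exon. In Snhg3, Snhg10 and Snhg9 the read-based host counts were not above the alignment-based ones. Snhg11 holds Gm25129 (3 counts in replicate 2 and 0 in replicate 1). Its read-based counts were above, with 427.1 against 333 in replicate 2 and 551.1 against 427 in replicate 1. Hosts with no small RNA counts also varied. The read-based count was 1.33 and 1.70 times the alignment-based one in Snhg14, 1.23 and 1.33 times in Mir99ahg and 0.976 and 0.985 times in Snhg18. Snora73b had 2467.7 counts in replicate 2 and 2716.6 in replicate 1 and Snora73a had 1607.2 and 1801.7, while their host Snhg3 had 121 and 154 read-based and 141.0 and 164.6 alignment-based counts. Scarna13 had 926 and 1043 counts, while its host Snhg10 had 17 and 10 read-based and 18 and 16 alignment-based counts. Snora78 had 53 and 61 counts, while its host Snhg9 had 0 and 6. In Snhg3, Snhg10 and Snhg9 the small RNA held more counts than the host in both libraries. Ratios between libraries were -0.13 for Snora73b, -0.16 for Snora73a and -0.16 for Scarna13, each within 1.5-fold. By TPM these RNAs cannot be set beside their hosts evenly, since the alignment-based effective length was 106 bases for Snora73b and 27 bases for Snord22.

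Small RNA genes with alignment-based counts all had 100 bases or more. Of the 272 annotated small RNA genes, 250 have under 100 bases, and none of them held alignment-based counts. The alignment-based table takes 99 bases off the length to give the effective length (median over transcripts over 300 bases). Genes under 100 bases may therefore hold 0 counts by construction, so their 0 does not show absence. Of the 17 snoRNA and scaRNA genes of 100 bases or more, 14 held counts in at least 1 library. Snhg8 differed in the other direction, with 77 read-based against 143.6 alignment-based counts in replicate 2 and 90 against 171.9 in replicate 1; its Snora24, which lies in 1 retained-intron transcript, held 1.4 and 6.1 counts.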

How the data were processed

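Total RNA of 2 adrenal gland libraries was quantified by the authors against mm10 and GENCODE M21, per the deposited file notes; aligner and quantifiers are not given in the sources used here. The authors deposited alignment-based tables with expected counts, TPM, FPKM, the percent of a gene's TPM on each isoform and a lower and upper bound of TPM (entered as a score), per the file headers. The authors also deposited read-based tables with estimated counts, TPM and effective lengths, summed here per gene. The gene tables held 34149995 expected counts in genes in replicate 2 and 36182740 in replicate 1; rows that are no gene (spike-ins, transfer RNAs) held 0.885% and 0.904% more and were left out.

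The members and gene lists were chosen with earlier results of these data known. Ratios are log2 of expected counts plus 0.5, replicate 2 over replicate 1, over library sizes scaled by TMM (edgeR 4.0.16, R 4.3.3), with 95% Clopper-Pearson intervals (scipy 1.17.1) that hold counting error alone, as PCR copies were not told apart by molecular identifiers. Genes were compared between libraries at a mean of 100 or more counts and called past 1.5-fold. Quantifier ratios are log2 of TPM plus 0.01, at 1 TPM or more by either table, called past 2-fold. Small RNA genes count as hosted when annotated inside a host on its strand. Every member at 1 TPM or more in both libraries is given in full, and of each list the 3 genes of highest mean TPM. Procedures were tested on simulated data. Alternatives were other scalings (total count, DESeq2 1.42.0 size factors), other minimums, FPKM, read-based values and single libraries.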

Additional observations from a re-analysis of the deposited data

How the results depend on the processing

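The number of host genes at 1 TPM or more was 17 under a minimum of 0.5 TPM, FPKM and read-based TPM, and 17 to 18 with 1 library left out. The summed TPM was 664.1 by the read-based table and 187.9 to 202.2 by single libraries. The median ratio stayed between 0.02 and 0.12 under other scalings and minimums; DESeq2 gave both libraries a size factor of 1. One host gene of 15, in place of 0, passed 1.5-fold by TPM ratio (Snhg17, log2 ratio 0.93), where 3.81% of all genes did. At a minimum of 20 counts 1 of 17 did (Snhg15), against 6.40% of all genes. At 1 count in both libraries it was 1 of 21 (Snhg15), against 19.1%. By total counts, DESeq2 size factors and read-based counts 0 of 15 did, against 2.75%, 2.65% and 2.95% of all genes. Past 2-fold there were 0 host genes, and the share of all genes is not given here. The median of all genes tested moved by under 0.1 under every scaling. Hosts with the same leading transcript numbered 4 to 6, and the median leading share was 51.6% to 61.2% with 1 library left out. The retained-intron share of 16.6% became 26.9% by read-based TPM and 21.6% by counts. Hosts over 2-fold apart between the quantifiers numbered 3 by counts, 2 to 4 with 1 library left out, and 10 without centring. Those 10 were all higher by the read-based table. Without centring, the median log2 ratio of all genes was itself 0.94 in replicate 2 and 0.86 in replicate 1, near the 2-fold limit. The shares of all genes under these settings are not given here, so the 10 are not read as a trait of the hosts. The protein-coding host list, at -0.04, had a median ratio of 0.04 by total counts and 0.05 by TPM ratio. The cause of these differences was not tested, and read-based TPM moved the mean of all 17 genes by more than the spread between libraries. No paired analysis was possible because there is 1 group. With 2 libraries, levels of genes near the mean of 17 counts of Snhg10 are limited by depth.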

Other observations

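A pair of annotated miRNAs share their bases with scaRNAs of the hosts, as annotated in RefSeq and GENCODE M21. The mature forms of miR-3069 (chr12:105031078-105031140, both arms, minus strand) lie within Scarna13 in Snhg10. The mature forms of miR-6516 (chr11:117077370-117077433, plus strand) lie within the scaRNA Gm26083 in Snhg20. The counts given for these 2 scaRNAs, 926 and 371.7 in replicate 2 and 1043 and 384.6 in replicate 1, therefore cover the bases of the miRNAs, and a count of reads of miRNA length was not analysed here.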
